A study of Arabidopsis thaliana with 30 samples.

Results

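The 56 genes described here are nuclear genes of Arabidopsis thaliana that had almost no reads in wild-type leaves and many reads in leaves labelled hda6, at both day lengths used. They were chosen from the counts themselves. A gene entered with at most 5 counts summed over the 3 wild-type libraries at 12 h, at most 5 summed over the 3 wild-type libraries grown with hda6 at 16 h, and at least 20 counts in each of the 6 hda6 libraries. Of 32548 nuclear gene identifiers in the tables, 9441 met both wild-type limits and 56 met all of them. The difference between hda6 and these 2 wild types is therefore a description of how the genes were picked, with no test. At the same limits, 55 other genes passed in hda6 at 12 h but not at 16 h, and 18 passed at 16 h but not at 12 h.

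All samples were leaves of the Col-0 ecotype taken at bolting, with 3 full-sib replicates in each of 10 groups, none under heat. At 12 h of light per day one set held wild type, cue1 and hda6, and another held sal1 with a wild type of its own. At 16 h one set held wild type, cue1 and msh1, and another held hda6 with a wild type of its own. HDA6 is a histone deacetylase, CUE1 a transporter of phosphoenolpyruvate across the plastid envelope, SAL1 a phosphatase that breaks down a plastid stress signal, and MSH1 a MutS relative of plastids and mitochondria. Which alleles the 4 mutants carry is not stated in the sources used here.

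HDA6 removes acetyl groups from histones and is known in Arabidopsis for silencing transposable elements, ribosomal RNA genes and some protein-coding genes. It acts together with DNA methylation, so that genes next to or derived from transposons are among those known to come on when it is lost. Genes of this kind are often short, poorly characterised and without a known function in leaves.

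The 30 libraries held 14417942 to 33747006 counts on genes. Libraries of the 12 h set with cue1 and hda6 were the deepest, from 32306939 counts upward, and 2.58% to 5.78% of their reads fell on no gene. In the other 3 sets this share was 48.0% to 49.6%. Among 1242 nuclear genes with at least 90% of their exons covered by a gene on the other strand, the median wild-type level was 0.131 CPM (a gene's counts per 1000000 gene counts of its library) in the first set and 2.02 to 2.62 CPM in the wild types of the other sets. How strand was treated in counting is not stated in the sources used here. The split coincides with the 2 hda6 sets, so day length cannot be told apart from it in the comparison of hda6 at 12 h with hda6 at 16 h.

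Of the 56 genes, 50 are annotated as protein-coding and 25 as uncharacterized proteins. Among all nuclear genes in the tables, 8.34% carry that label, against 44.6% here. The bases before the annotated start of 2 of the 10 most abundant members are shown first, as the promoter-side sequence of a non-coding and of a coding member. Sequences are from RefSeq's TAIR10.1 assembly, 250 bases long, written 5′ to 3′ on the gene's strand, with CG sites in capitals.
AT2G15555: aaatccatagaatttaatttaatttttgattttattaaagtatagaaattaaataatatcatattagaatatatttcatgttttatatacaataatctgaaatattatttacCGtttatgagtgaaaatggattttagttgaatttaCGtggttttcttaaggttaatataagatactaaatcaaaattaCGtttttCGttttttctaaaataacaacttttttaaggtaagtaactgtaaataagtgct
AT5G41660: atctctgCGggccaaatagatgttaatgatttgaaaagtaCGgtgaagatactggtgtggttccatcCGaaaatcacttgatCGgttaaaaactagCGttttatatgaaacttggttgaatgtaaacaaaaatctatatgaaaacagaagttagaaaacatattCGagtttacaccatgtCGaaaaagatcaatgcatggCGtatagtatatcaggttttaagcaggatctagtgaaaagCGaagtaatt
The first window, chr2:6786977-6787226 on the minus strand, holds 4 CG sites, and the second, chr5:16656458-16656707 on the plus strand, holds 9. The median over the 56 genes was 5 CG sites, the same as the median over all nuclear genes. The letters TATAAA, read on both strands, were in the window of 14 members, or 25.0%, against 46.1% of all nuclear genes and 49.7% of the genes silent in both wild types. Gene models marked as partial made up 69.6% of the members and 19.9% of all nuclear genes, with the silent genes in between. The annotated start of a partial model need not be where transcription starts, so these windows are not like-for-like promoter windows. The part of partial models in the CG and TATAAA values was not tested.

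The members AT3G60950 and AT3G61030 are near copies of each other on chromosome 3. They match at 99.96% over 5199 bases and their 250-base upstream windows are identical. The 150 bases farthest from each start are shown, from chr3:22524225-22524374 and chr3:22585405-22585554, both on the plus strand, with CG sites in capitals.
AT3G60950: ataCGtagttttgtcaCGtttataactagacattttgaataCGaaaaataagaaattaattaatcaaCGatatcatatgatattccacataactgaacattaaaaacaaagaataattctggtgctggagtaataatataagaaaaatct
AT3G61030: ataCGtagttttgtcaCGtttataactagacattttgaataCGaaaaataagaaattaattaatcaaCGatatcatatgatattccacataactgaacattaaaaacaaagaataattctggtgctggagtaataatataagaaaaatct
Both are annotated as calcium- and lipid-binding proteins. In the 6 libraries of hda6, AT3G60950 had 493, 675, 740, 462, 294 and 337 counts and AT3G61030 had 420, 748, 479, 185, 413 and 182. Both had 0 counts in all 6 wild-type libraries of the rule. Reads of one copy can be assigned to the other, so the split between them is uncertain. In all, 18 members had a copy elsewhere in the genome at 90% identity or more over at least 50% of their length, and 24 had such a copy or a gene on the other strand over more than 0.1 of their exons.

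**Figure D1:**
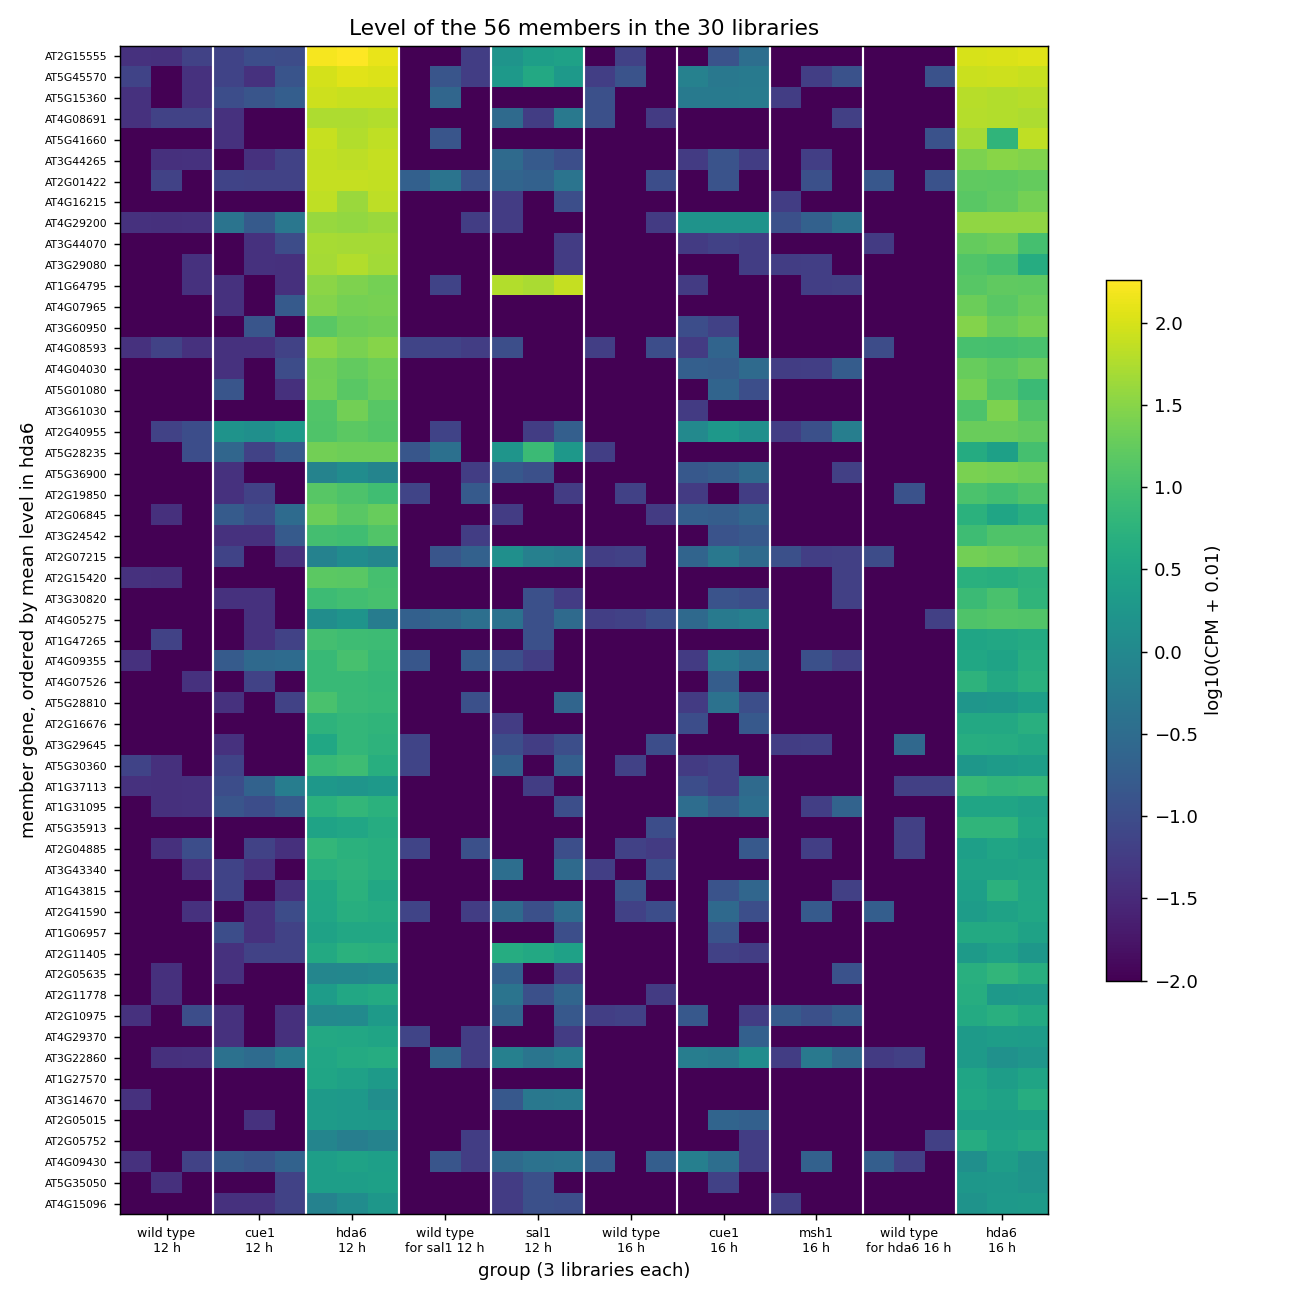
Level of each of the 56 members (rows, ordered by mean level in hda6) in the 30 libraries (columns, 3 a group), as log10 of CPM plus 0.01. By the rule the 6 hda6 libraries stand above the wild types in every row. AT1G64795 is brightest in the 3 sal1 libraries, and most cells outside hda6 are at or near 0 CPM.

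In hda6 the members together reached 1170 to 1226 CPM in the libraries at 12 h and 774 to 827 CPM at 16 h. In the 2 wild types of the rule the same sum was 0.456 to 0.934 and 0.487 to 0.761 CPM. At 12 h, 26 of the 56 had no count in any of the 3 wild-type libraries, at 16 h 40 had none, and 18 had none in either. The levels within hda6 were far from even. The median member was at 7.82 CPM at 12 h and 5.21 CPM at 16 h, while the 5 highest members gave 41.3% and 43.5% of the summed level.

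The most abundant was AT2G15555, a non-coding RNA gene of chromosome 2. It had 5238, 6020 and 4345 counts in hda6 at 12 h and 1605, 1625 and 1615 at 16 h, against 1, 1 and 2 counts and then 0 in the wild types. This is 157 ± 26.2 CPM (SD, n = 3) at 12 h and 106 ± 5.74 CPM at 16 h. The ratio of its counts was 3910 at 12 h, with a 95% counting interval from 1530 to 14400, and at least 2090-fold at 16 h against a limit of 3 counts over the 3 wild-type libraries. Such intervals and limits cover counting error only, and take no account of the choice of the genes on these same counts.

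AT5G45570, one of 3 members annotated as Ulp1 proteases, enzymes of a family that cuts the small protein SUMO from its targets, came next. It had 3189, 3822 and 3606 counts in hda6 at 12 h and 1337, 1354 and 1137 at 16 h. Its wild types had 2, 0 and 1 and then 0, 0 and 2 counts. AT5G15360, uncharacterized, had 2819, 2604 and 2690 counts and then 1019, 912 and 927, with 1, 0 and 1 and then 0 counts in the wild types. The hda6 libraries of these 3 genes lay between 912 and 6020 counts, and no wild-type library was above 2.

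The other 7 of the 10 highest members had group means in hda6 between 33.0 and 57.0 CPM when both day lengths were averaged. They were the uncharacterized AT4G08691, AT5G41660 and AT4G16215, the non-coding AT2G01422, and 3 relatives of beta-galactosidases, AT3G44265, AT4G29200 and AT3G44070. Beta-galactosidases release galactose from sugar chains, in plants mostly from those of the cell wall. AT5G41660 was the most uneven between replicates of any member. It had 2693, 1971 and 2347 counts in hda6 at 12 h, and 782, 97 and 1010 at 16 h. The second 16 h library was low for this gene, with an 11.3-fold range between libraries in CPM and a coefficient of variation of 77.9%. Its wild type at 16 h had 0, 0 and 2 counts, so the low library was still above it.

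As a group, the members varied more between replicates than other genes did. Their median coefficient of variation was 14.9% at 12 h and 15.0% at 16 h, against 8.59% and 9.12% over all genes at 1 CPM or more. These sets of genes were not matched for level. The part of counting error, which weighs more at low counts, was not tested. At 16 h 8 members differed by more than 2 times between the highest and lowest library, and at 12 h 3 did. No library was high for all of them: at 16 h the highest of the 3 libraries was the first for 17 members, the second for 18 and the third for 21.

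Several members belong to the same families. These families were read from product names after the values had been seen. Of 20 nuclear genes annotated as beta-galactosidase related, 6 were members, namely AT2G06845, AT3G24542, AT3G44070, AT3G44265, AT4G29200 and AT5G01080. Of the 14 others, 6 had enough counts for a test at 12 h. AT5G35760 had the largest difference of these at both day lengths. It went from 0.301 ± 0.0921 to 8.07 ± 1.14 CPM at 12 h (n = 3 each, log2 fold change 4.73 ± 0.404 SE, edgeR quasi-likelihood test with Benjamini-Hochberg adjusted p = 8.57e-05). At 16 h it went from 0.296 ± 0.124 to 5.27 ± 0.265 CPM (log2 fold change 4.15 ± 0.324 SE, edgeR adjusted p = 1.6e-07). It was left out of the 56 because its wild types had 30 and 18 counts. At 12 h AT3G43580 and AT5G26622 were also called higher and AT5G01075 lower (edgeR adjusted p = 0.00153, 0.00555 and 0.00784), none of them at 16 h. AT5G63800, at 223 and 196 CPM in wild type and hda6 at 12 h, did not pass at either.

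Of 5 genes annotated as Ulp1 proteases, 3 were members, AT5G28235, AT5G28810 and AT5G45570, and they are close relatives. AT5G28235 matched AT5G45570 at 99.42% over 2050 bases, and AT5G28810 matched it at 92.58% over 2951 bases. Their levels in hda6 at 12 h were 21.4, 8.59 and 107 CPM, and reads shared between copies make the split uncertain. Of the 2 others, AT4G08430 was at 0 CPM in the wild types and 0.613 and 0.301 CPM in hda6 at 12 h and 16 h. It was called higher at 12 h (edgeR adjusted p = 0.00291), where it passed the filter only through hda6 and could hardly be called lower. At 16 h it was under the filter, and AT2G10260 was under the filter in both. Of 4 genes annotated as transcription repressors, 2 were members, OFP9 (AT4G04030), of the OVATE family, and AT2G19850, which matched OFP9 at 98.25% over 1311 bases. OFP9 had 718, 563 and 686 counts at 12 h and 301, 245 and 278 at 16 h in hda6, and 0 in all 6 wild-type libraries. Another gene with this annotation, AT3G54730, was outside the 56 with 32 counts in each wild type. It rose from 0.321 ± 0.0472 to 32.0 ± 1.70 CPM at 12 h (log2 fold change 6.63, edgeR adjusted p = 4.05e-06), and from 0.511 ± 0.373 to 38.7 ± 2.23 CPM at 16 h (log2 fold change 6.22, edgeR adjusted p = 2.93e-12). The other one outside, AT4G04025, had no count in these wild types and was at 0.0101 CPM in hda6 at 12 h and 0 at 16 h.

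Retrotransposon-related members were fewer. AT2G16676 and AT2G41590 are 2 of 15 genes annotated as Ta11-like retrotransposons of the non-LTR kind, and AT3G30820 is 1 of 3 annotated as retrotransposon ORF-1 proteins. AT2G16676 had 185, 222 and 205 counts in hda6 at 12 h and 60, 59 and 69 at 16 h, with none in the wild types. Of the 13 Ta11-like genes outside the 56, AT2G02103 and AT2G13450 were called higher in hda6 at 12 h (edgeR adjusted p = 0.00527 and 0.000482). They had 0 and 2 counts over the 3 wild-type libraries. None was called at 16 h, where AT4G02000 was the one tested. Of the 2 other ORF-1 genes, AT3G44570 was called higher at 16 h (edgeR adjusted p = 0.0112, lost without 1 wild-type library) and AT2G14000 was under the filter. AT3G44570 had 8 counts over its wild-type libraries. AT2G02103, AT2G13450 and AT3G44570 passed the filter only through hda6 and could hardly be called lower. Annotated pseudogenes, which include many transposon genes, are not analysed here.

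The 2 hda6 groups ranked the members in a similar but not identical order (Spearman rho 0.632 over the 56 group means, a description with no p, since the genes share libraries and the rule). 38 members were higher in hda6 at 12 h and 18 at 16 h. For 29, all 3 libraries at 12 h lay above all 3 at 16 h, for 10 the reverse held, and for 17 the libraries overlapped. The median ratio of 12 h to 16 h was 1.37, and 32 members lay within 2-fold. In a count chosen after seeing the data, among the 30 members with no near copy and no counted gene on the other strand, 22 were higher at 12 h and 8 at 16 h.

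**Figure D2:**
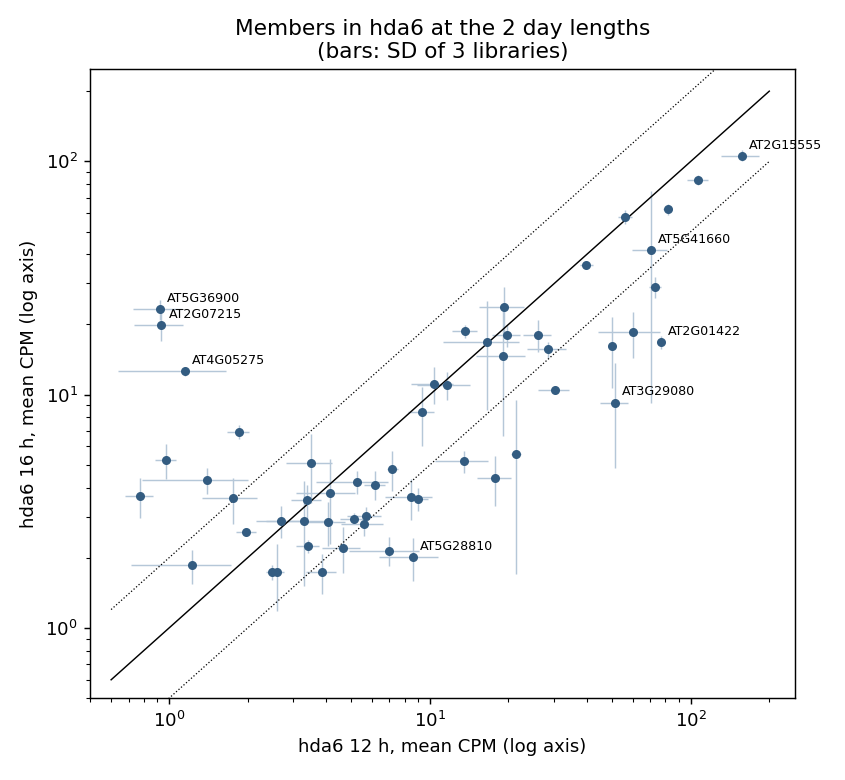
Mean CPM of each member in hda6 at 12 h (x, log axis) and at 16 h (y, log axis), with the SD of 3 libraries. The solid line marks equal levels and the dotted lines 2-fold differences. AT5G36900, AT2G07215 and AT4G05275 stand far above the line, and AT3G29080, AT2G01422 and AT5G28810 are the farthest below it.

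The 3 members with the largest excess at 12 h were AT3G29080, AT2G01422 and AT5G28810. AT3G29080, uncharacterized, had 1625, 1928 and 1548 counts at 12 h and 205, 164 and 63 at 16 h, or 5.55 times the CPM at 12 h. AT2G01422 had 2597, 2546 and 2516 counts against 265, 247 and 257, or 4.59 times the CPM. AT5G28810 had 368, 251 and 235 against 27, 29 and 36, or 4.26 times the CPM. In none of the 3 did the libraries of the 2 day lengths overlap in CPM.

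The 3 with the largest excess at 16 h were AT5G36900, AT2G07215 and AT4G05275. AT5G36900 had 26, 38 and 28 counts at 12 h and 406, 361 and 303 at 16 h, or 25.1 times the CPM at 16 h. AT2G07215 had 25, 38 and 30 against 358, 320 and 242, or 21.3 times the CPM. AT4G05275, a non-coding RNA, had 41, 53 and 20 against 191, 204 and 185, which is 1.15 and 12.6 CPM. AT2G07215 and AT5G36900 are related in sequence, with a match of 82.02% over 89 bases of the genes themselves. Within 250 bases upstream they also share a stretch of 24 bases, whose role was not tested. It is shown because no other pair of members apart from the 2 near copies shared an upstream match at a blastn expect limit of 0.0001. It lies at chr2:2997968-2997991 on the minus strand and chr5:14546713-14546736 on the plus strand, with the base that differs in capitals.
AT2G07215: atcccaaagtttaaaaGataacaa
AT5G36900: atcccaaagtttaaaaCataacaa
AT2G07215 has a counted gene on the other strand. The long non-coding RNA AT2G07213 covers 0.85 of the exons of AT2G07215, and its level in hda6 was 18.0 CPM at 12 h and 19.8 CPM at 16 h. AT2G07215 itself was at 0.935 ± 0.201 CPM at 12 h and 19.9 ± 2.90 CPM at 16 h, so at 16 h the 2 strands had nearly the same level.

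Some partners of other members were also higher at 16 h. Counted genes lie on the other strand of 10 members. The long non-coding RNA AT4G05715, opposite AT4G09355, was at 0.161 CPM in hda6 at 12 h and 12.6 CPM at 16 h. AT3G06715, opposite AT3G44070, was at 0.483 and 6.99 CPM, and AT3G05885, opposite AT3G29645, at 0.171 and 3.64 CPM. Each of these partners was near 0 in its wild types. The part of the strand setting in these differences was not tested. AT5G36900 and AT4G05275 have no annotated gene on the other strand.

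Outside hda6 the members were silent in wild types that the rule did not use. At most 5 counts summed over 3 libraries were found for 52 of the 56 in the wild type grown with sal1 and for 55 in the wild type grown with cue1 and msh1 at 16 h. The other mutants were not all like this. At least 10 summed counts were reached by 10 members in cue1 at 12 h, 14 in cue1 at 16 h, 16 in sal1 and 3 in msh1, with 26 members in at least one of these groups and 30 in none. Summed over the members, the level per library was 3.66 to 6.42 CPM in cue1 at 12 h, 7.28 to 10.3 CPM in cue1 at 16 h, 73.9 to 93.7 CPM in sal1 and 0.756 to 2.47 CPM in msh1.

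Since most silent genes stay silent, these counts are set beside the same count over all nuclear genes that had at most 5 counts in the wild type of the comparison. In cue1 at 16 h, 13 of 55 such members reached 10 counts, or 23.6%, against 2.66% of all such genes. In cue1 at 12 h it was 10 of 56, or 17.9%, against 0.958%, with the wild type shared with the rule. In sal1 it was 12 of 52, or 23.1%, against 13.8%, and in msh1 3 of 55, or 5.45%, against 3.0%. The share of members was thus several times the background in cue1 at both day lengths, and nearer to it in sal1 and msh1. In a count chosen after seeing the data, the 24 members with a near copy or an overlap on the other strand were left out. The counts in cue1 were then 5 at 12 h and 5 at 16 h. They are out of fewer members, so they do not compare directly with 10 of 56 and 13 of 55. For the 55 genes that passed in hda6 at 12 h but not at 16 h, the shares were 5.45% in cue1 at 12 h and 1.92% in cue1 at 16 h.

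**Figure D3:**
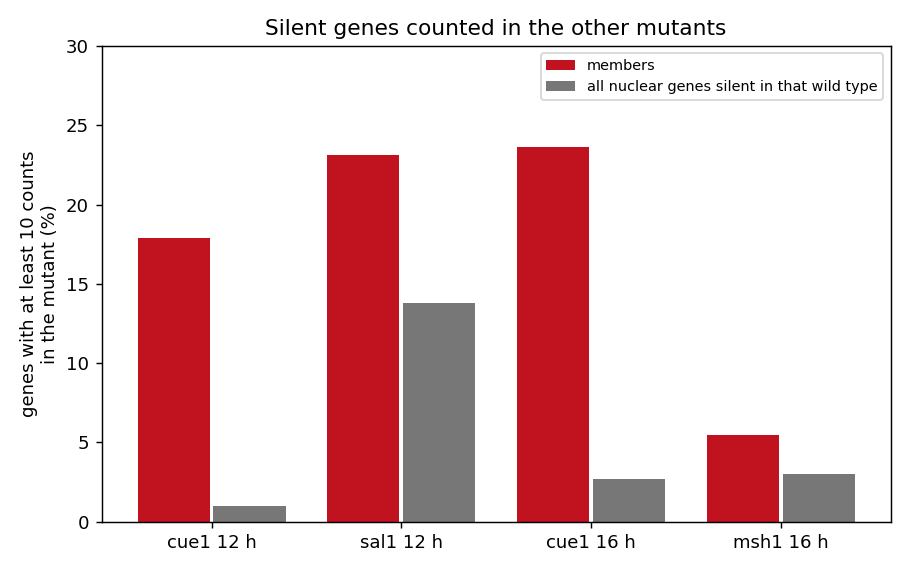
Share of genes with at most 5 counts in the wild type of a comparison that reached at least 10 counts over the 3 mutant libraries, for the members (red bars) and all nuclear genes (grey bars). In cue1 the members stand at 17.9% and 23.6% against 0.958% and 2.66%, in sal1 at 23.1% against 13.8%, and in msh1 at 5.45% against 3.0%.

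Few members had enough counts for a test. The filter on low counts left 2 members in cue1 at 12 h, 6 in sal1, 4 in cue1 at 16 h and 4 in msh1. All of them passed through mutant libraries, with fewer than 10 counts in every wild-type library. Those in msh1 passed only through the cue1 libraries of the shared fit. Counts of calls among the tested members therefore say nothing about the 56. Over all genes tested, 0.563% were called higher and 0.272% lower in cue1 at 12 h, 0.835% in either direction, at an adjusted p under 0.05. In cue1 at 16 h it was 3.34% higher and 3.42% lower (6.75% in all), in sal1 25.0% and 21.3% (46.3%), and in msh1 17.4% and 16.0% (33.4%). Of the 50 members with a count in cue1 or wild type at 12 h, 15 had all 3 cue1 libraries above all 3 of wild type, against 7.57% of nuclear genes with a count. Nothing is read from that comparison, since the rule held the members low in this wild type and the other genes were not so limited. It was 16 of 47 in cue1 at 16 h against 20.3%, 14 of 45 in sal1 against 30.9%, and 5 of 36 in msh1 against 28.5%. The counts in sal1 and msh1 were thus at or under the background.

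Of the members on in cue1, 8 reached 10 counts at both day lengths. AT2G40955, uncharacterized, had 50, 43 and 65 counts in cue1 at 12 h against 0, 2 and 3 in wild type, and 22, 33 and 27 at 16 h against 0, 0 and 0. All 6 cue1 libraries lay above all 6 of their wild types. Its level in cue1 was 1.59 ± 0.318 and 1.39 ± 0.429 CPM, beside 13.6 and 18.7 CPM in hda6. At 12 h the wild type is the one the rule used, so the values there are a description, and at 16 h the edgeR adjusted p was 0.0103. AT2G40955 has a near copy, the member AT4G15096, at 99.71% over 2391 bases, which had 1, 1 and 2 counts in cue1 at 12 h.

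AT4G29200, a beta-galactosidase relative, had 14, 5 and 16 counts in cue1 at 12 h against 1, 1 and 1, and 33, 27 and 31 at 16 h against 0, 0 and 1. The 3 cue1 libraries at 16 h were nearly equal, at 1.51 ± 0.00408 CPM. It was called at 16 h (log2 fold change 5.96 ± 0.707 SE, edgeR adjusted p = 0.000627) and was under the filter at 12 h. AT3G22860 (TIF3C2), annotated as subunit C2 of a eukaryotic translation initiation factor, had 12, 10 and 19 counts against 0, 1 and 1 at 12 h, and 14, 10 and 24 against 0 at 16 h. Its edgeR adjusted p was 0.0143 at 16 h, and its 12 h values are a description for the same reason. AT5G15360 had 12, 10 and 12 counts in cue1 at 16 h against 2, 0 and 0 (edgeR adjusted p = 0.0238, lost without any one of 3 of the 6 libraries), and 3, 4 and 6 against 1, 0 and 1 at 12 h.

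In msh1 the same 3 genes were the ones with 10 counts or more. AT4G29200 had 2, 4 and 7 counts, AT3G22860 had 1, 10 and 5, and AT2G40955 had 1, 2 and 12, with most of its counts in a single library. With cue1 in the fit, edgeR gave adjusted p = 0.0218, 0.0235 and 0.0446, but these genes passed the low-count filter only through the cue1 libraries. With only the 2 groups in the fit they were under the filter and not tested. Each of the calls with cue1 in the fit was lost when any one of 3 or 4 of the 6 libraries was left out. The summed level of flower genes differed between the same groups, although in cue1 none of the 7 passed the test and in msh1 5 did. The summed level of 7 flower genes was 1.80 to 3.36 CPM in the 16 h wild type, 4.94 to 8.74 CPM in cue1 and 10.4 to 14.0 CPM in msh1, with none of the 7 at 0. The summed level of 8 pollen and anther genes was 0.404 to 1.31, 0.899 to 5.40 and 2.82 to 7.79 CPM in these groups, with 4, 2 and 4 of the 8 at 0. In cue1 at 12 h the flower genes summed to 1.93 to 3.99 CPM. Their part in the counts of the members was not tested. In hda6 at 16 h the flower genes summed to 2.69 to 6.16 CPM against 2.19 to 3.69 in its wild type, and at 12 h to 2.49 to 3.71 CPM against 1.57 to 2.04. At 12 h in hda6 the flower genes PI (0.141 to 0.604 CPM, edgeR adjusted p = 0.0176) and SEP1 (0.0803 to 0.413 CPM, edgeR adjusted p = 0.0313) rose. These calls were lost without any one of 2 and of 5 of the 6 libraries. In wild type both genes lay under the level of the low-count filter, so they could hardly be called lower. The leaf antenna gene LHCB2.1 fell from 2260 to 761 CPM (edgeR adjusted p = 0.00241). No other gene of the leaf, flower, pollen, seed and root lists passed in hda6 at either day length. In bulk leaves, fewer cells of a type and less RNA per cell cannot be told apart.

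**Figure D4:**
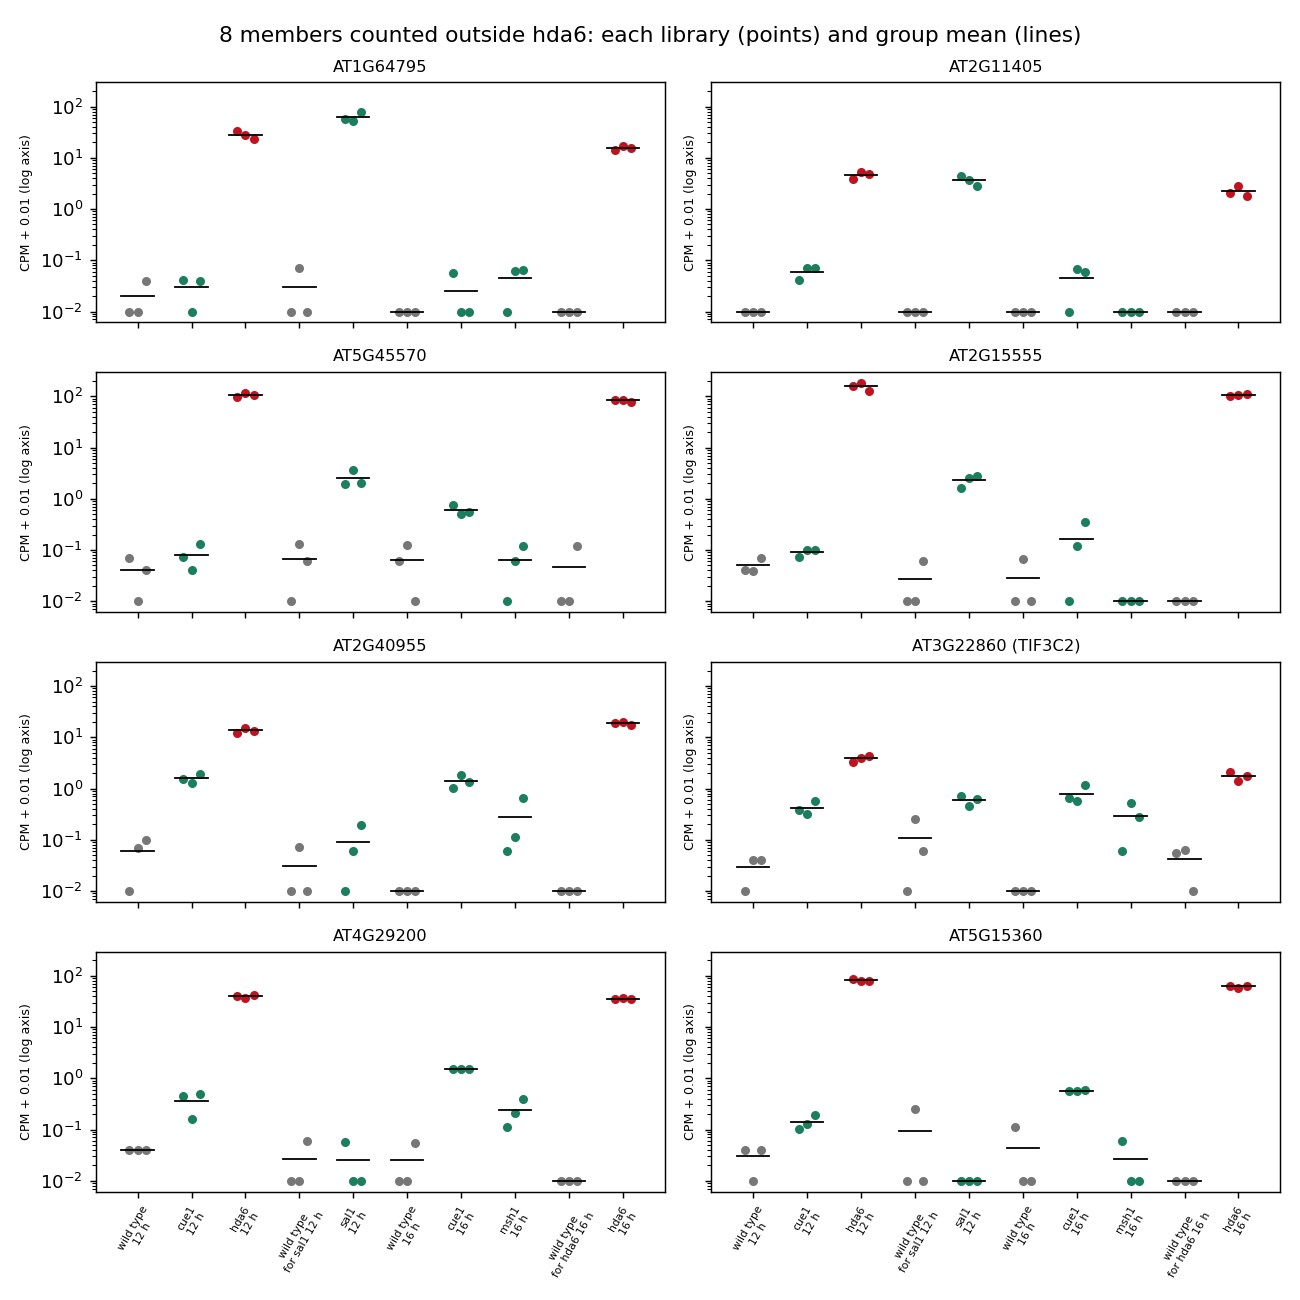
CPM plus 0.01 (log axis) of 8 members in each library (points; red hda6, grey wild types, green other mutants) with group means (lines). AT1G64795 is higher in sal1 than in hda6, AT2G11405 is at a similar level in both, and AT2G40955, AT3G22860 and AT4G29200 lie between wild type and hda6 in cue1.

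In sal1 a single gene carried most of the level. The summed level of 6 leaf genes was also lower there, at 13100 to 18000 CPM against 20900 to 28500 CPM, with 4 of the 6 called lower, and that of the flower genes was 2.35 to 3.48 against 0.768 to 1.59 CPM, with none of either list at 0. Their part in the members' levels was not tested. AT1G64795, an uncharacterized gene of chromosome 1, had 1234, 1075 and 1663 counts in sal1 against 0, 1 and 0 in its wild type, and gave 78.4% of the members' summed CPM there. It was at 63.3 ± 13.2 CPM in sal1, above its 28.4 CPM in hda6 at 12 h and 15.6 CPM at 16 h, each from a set of its own. The log2 fold change in sal1 was 11.2 ± 0.373 SE (edgeR adjusted p = 2.09e-06). It had 1, 0 and 1 counts in cue1 at 12 h and 0, 1 and 1 in msh1. AT1G64795 (chr1:24082579-24082848, plus strand) lies within ILITYHIA (ILA), a gene on the minus strand for a protein known in plant immunity, whose exons cover 0.706 of it. ILA was at 267 ± 28.1 CPM in wild type and 251 ± 25.6 CPM in sal1 (edgeR adjusted p = 0.253). AT1G64820, annotated as a MATE efflux transporter and the third gene further along the plus strand, was chosen after its values were seen. It rose from 0.0584 ± 0.00736 to 12.6 ± 1.44 CPM in sal1 (edgeR adjusted p = 2.41e-06), and stood at 0.0501 CPM in hda6 at 12 h and 0.0925 CPM at 16 h.

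Of the other members in sal1, AT2G11405 and AT2G07215 were near their levels in hda6 at 12 h, but AT2G07215 was far below its level in hda6 at 16 h. AT2G11405 had 92, 75 and 59 counts against 0 in all 3 wild-type libraries, or 3.62 ± 0.792 CPM, beside 4.63 CPM in hda6 at 12 h and 2.21 CPM at 16 h. Its edgeR adjusted p was 0.00031. AT5G45570 had 41, 75 and 43 counts against 0, 2 and 1 (edgeR adjusted p = 0.000644), and AT2G15555 34, 50 and 58 against 0, 0 and 1 (edgeR adjusted p = 0.000269). AT2G07215 had 28, 14 and 13 against 0, 2 and 4 (edgeR adjusted p = 0.012). This is 0.877 CPM, beside 0.935 CPM in hda6 at 12 h and 19.9 CPM at 16 h. Reads on no gene were 48.5% to 49.4% in the sal1 set, 49.1% to 49.6% in the 16 h hda6 set and 2.58% to 5.78% in the 12 h set with hda6. AT5G28235 had 35, 161 and 40 against 2, 6 and 0 (edgeR adjusted p = 0.00811), with the second library well above the other two. AT5G45570 was at 2.56 CPM in sal1 against 107 CPM in hda6 at 12 h, and AT2G15555 at 2.27 against 157 CPM, so these genes were less abundant in sal1 than in hda6. AT3G22860 had 15, 9 and 13 counts in sal1 against 0, 4 and 1, and was under the filter there. AT3G14670, uncharacterized, had 3, 10 and 12 counts in sal1 and 0 in its wild type. AT4G05275 had 3, 4 and 7 counts in the wild type and 8, 2 and 6 in sal1, so the groups overlapped, and it reached 6, 10 and 14 counts in cue1 at 16 h against 1, 1 and 2.

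Many of the members, though not all, lie in parts of the genome rich in annotated pseudogenes. Chromosome 2 holds 16 of them, chromosome 4 holds 12, chromosome 3 holds 11, chromosome 5 holds 10 and chromosome 1 holds 7, or 12.5% against 26.6% of all nuclear genes on chromosome 1. Within 250 kb of a member, pseudogenes made up a median of 27.8% of the annotated genes. The median was 3.51% around all nuclear genes and 4.68% around the genes silent in both wild types. The lower and upper quartiles were 6.23% and 62.2% for the members, and 1.72% and 6.71% for all nuclear genes. For 28 of the 56 members the next annotated gene on at least one side was a pseudogene, against 10.5% of all nuclear genes and 17.5% of the silent genes. The 55 genes on in hda6 at 12 h only had a median of 11.4%, with 47.3% next to a pseudogene. These are descriptions, and neighbouring members share surroundings. A single pair of members are neighbours, AT2G05015, a non-coding RNA, and AT2G06845, which overlap on opposite strands.

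**Figure D5:**
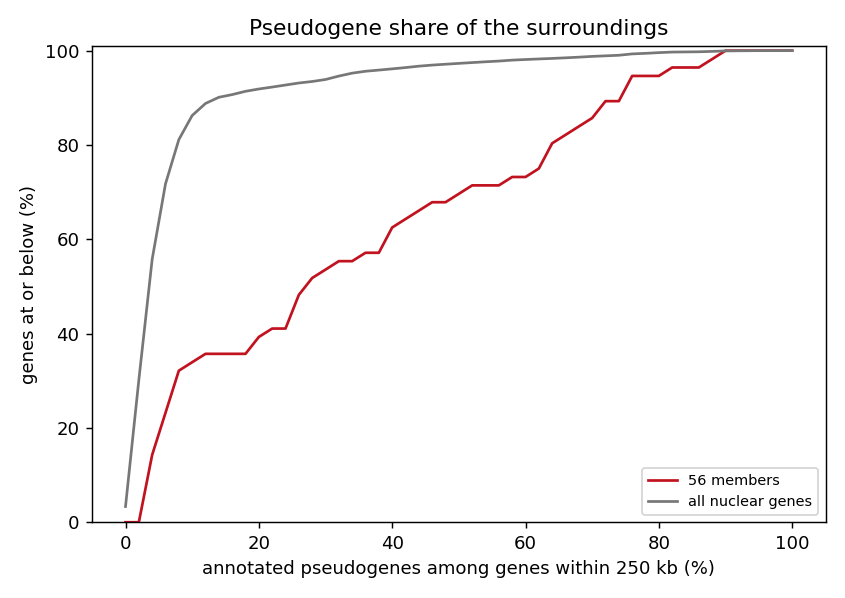
Cumulative share of genes (y) by the percent of annotated pseudogenes among the genes within 250 kb (x), for the 56 members (red) and all nuclear genes (grey). At 20% pseudogenes, 39.3% of the members and 91.9% of all nuclear genes lie at or below.

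Genes next to the members were looked at in the hda6 comparisons, which did not choose them. The 56 members have 110 other neighbours. Of these, 39 were not counted and are not analysed here, all annotated pseudogenes except the RNA gene AT5G00325. The other 71 were counted. At 12 h, 42 of them were tested and 15, or 35.7%, were called higher in hda6, against a background of 22.2% of all tested genes outside the members (41.9% in either direction). At 16 h 12 of 43, or 27.9%, were called higher, against 4.23% (7.76% in either direction). In a count chosen after seeing the data, without neighbours that overlap a member on the other strand, it was 14 of 38 (36.8%) at 12 h and 6 of 35 (17.1%) at 16 h. Called lower were 10 at 12 h, or 23.8% against 19.6%, and 4 at 16 h, or 9.3% against 3.53%. Some neighbours that overlap a member passed the filter at 16 h only through hda6 and could hardly be called lower. Examples are AT1G06407 (0 to 2.38 CPM), AT3G06715 (0 to 6.99 CPM) and AT4G05715 (0.0327 to 12.6 CPM). Neighbours without such an overlap were not checked for passing the filter only through hda6. The background was not limited to genes low in wild type, so the shares called higher, with or without overlaps, are a description. Among neighbours without such an overlap, AT3G29639, 351 bases from AT3G29645, had a log2 fold change of 6.85 at 12 h and 6.33 at 16 h (edgeR adjusted p = 1.2e-07 and 1.02e-11), and AT1G27565, 349 bases from AT1G27570, had 6.08 and 4.90 (edgeR adjusted p = 0.000142 and 2.29e-05). These 2 were chosen after their values were seen, and their wild-type levels are not given here.

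Silencing genes were measured in the same libraries. HDA6 (AT5G63110) itself was at 27.5 ± 1.51 CPM in wild type and 24.3 ± 0.437 CPM in hda6 at 12 h (edgeR adjusted p = 0.0427, lost without any one of the 6 libraries), and at 24.0 ± 2.15 and 14.7 ± 0.951 CPM at 16 h (log2 fold change -0.65, edgeR adjusted p = 0.00136). Transcripts thus remained in both hda6 groups. Of 36 genes of histone deacetylation and DNA methylation, 34 were tested in each comparison. At 12 h in hda6, 14 fell and none rose, at a background of 19.6% of all genes called lower, while at 16 h 3 rose and 1, HDA6, fell, at 4.23% called higher. MET1, the methyltransferase that copies CG methylation, fell from 45.3 ± 7.80 to 22.0 ± 3.91 CPM at 12 h (edgeR adjusted p = 0.000825), SUVH5, a histone methyltransferase, from 2.85 ± 0.625 to 0.814 ± 0.297 CPM (edgeR adjusted p = 0.0015), and VIM2, which guides MET1, from 1.31 ± 0.242 to 0.412 ± 0.0678 CPM (edgeR adjusted p = 0.00187). VIM3 rose at 16 h from 11.2 ± 0.516 to 30.1 ± 10.3 CPM (edgeR adjusted p = 2.28e-05).

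Of 5 genes that remove DNA methylation or protect genes from it, 3 fell at 12 h and 1 at 16 h. IBM1, a histone demethylase, fell at both (33.3 ± 2.61 to 21.1 ± 1.87 CPM at 12 h, edgeR adjusted p = 0.000556; 27.1 ± 4.22 to 13.7 ± 2.16 CPM at 16 h, edgeR adjusted p = 0.000163), and ROS1, a DNA glycosylase, was at 73.4 ± 14.1 and 35.3 ± 3.99 CPM at 12 h (edgeR adjusted p = 0.000469). Among 4 genes linked to silencing by DNA methylation, QQS rose from 6.83 ± 1.34 to 43.4 ± 0.592 CPM at 12 h (edgeR adjusted p = 1.24e-05). At 16 h QQS rose from 6.83 ± 1.61 to 50.7 ± 3.68 CPM (edgeR adjusted p = 1.61e-10). SDC rose from 0.04 ± 0.0347 to 1.28 ± 0.326 CPM and from 0.386 ± 0.111 to 4.70 ± 1.52 CPM (edgeR adjusted p = 0.000598 and 2.24e-06). BNS fell at 12 h, from 3.55 ± 0.291 to 2.25 ± 0.25 CPM (edgeR adjusted p = 0.00637), and was at 2.34 ± 0.234 and 2.25 ± 0.344 CPM at 16 h (edgeR adjusted p = 0.997). FWA was under the filter in both. SDC also rose in sal1, from 0.225 ± 0.0652 to 3.27 ± 0.31 CPM (edgeR adjusted p = 0.000113), and in neither cue1 group did it pass the filter. The 4 genes did not move together in sal1, where 3 were tested, 1 was called higher, 1 lower and 1 did not pass. In msh1 2 were tested, with 1 called higher and 1 lower.

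At the edge of the rule, the 3 members just inside by their lowest hda6 library were AT4G05275 with 20 counts, AT4G09430, a TIR-NBS-LRR resistance gene, with 21, and AT2G05752 with 22. Just outside were AT4G08190 with 18, and AT2G04735 and AT2G05350 with 17. Outside by the wild-type limit were AT1G36920, AT1G36922 and AT2G33175, each with 7 counts in the 12 h wild type and at least 59 in every hda6 library.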

How the data were processed

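The authors deposited raw read counts per gene for each of the 30 libraries, from leaf RNA sequenced as paired reads. The submitters' processing notes name Trim Galore 0.6.6, cutadapt 2.8, STAR 2.7.10a and the TAIR10 build. The counting tool and its strand setting are not stated in the sources used here. Rows that name no gene were left out of library sizes. The members, lists and tests were chosen with earlier results of these data known. Named genes were the 10 highest members, up to 12 counted outside hda6 and the 3 most and least shifted between day lengths. Also named were those at the edges of the rule, those with a symbol and neighbouring members. Of the lists they were HDA6, the genes linked to silencing by DNA methylation and the 3 smallest p in each hda6 comparison. Members were chosen on the deposited counts; coordinates and sequences are from RefSeq TAIR10.1, whose annotation held all 32548 nuclear identifiers. Copies were sought with blastn 2.17.0. Tests were edgeR 4.0.16 quasi-likelihood tests (R 4.3.3, TMM scaling, filterByExpr with a minimum count of 10, Benjamini-Hochberg over all genes), tested on simulated data; DESeq2 1.42.0 was an alternative. Each set was fitted on its own, with all its groups in the fit, except that cue1 at 12 h was fitted with its wild type alone. In the sal1 set all 3 same-numbered pairs of wild type and mutant deviated together (correlations 0.123 to 0.195). For hda6 at 16 h 2 of 3 pairs were over 0.1 (0.044 to 0.176), and at 12 h 1 of 3 (-0.0509 to 0.139). No pair with cue1 or msh1 was over 0.1. Whether replicate numbers pair the samples was not settled by these values, and the fits carried no block. The limit of 20 counts outside hda6 and the subsets without copies or overlaps were chosen after seeing the data. No 2 libraries of a group agreed within sampling noise. Full-sib plants were the replicates, so p-values measure the spread between them.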

Additional observations from a re-analysis of the deposited data

Results flagged for a closer look

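VIM1 (AT1G57820), a partner of MET1 in copying CG methylation, moved in opposite directions in the 2 hda6 comparisons, with every hda6 library below every wild-type library at 12 h and above it at 16 h. It was at 23.7 ± 5.43 CPM in wild type and 10.5 ± 3.36 CPM in hda6 at 12 h (n = 3 each, edgeR adjusted p = 0.00403), and at 27.7 ± 0.779 and 35.8 ± 5.39 CPM at 16 h, a log2 fold change of 0.429 (edgeR adjusted p = 0.0221). At 16 h the call was lost without any one of 4 libraries. The difference between the day lengths was not tested.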

How the results depend on the processing

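The number of members was 56 by the rule, 18 with 0 counts in all 6 wild-type libraries, 29 with at least 50 counts in each hda6 library, and 56 to 61 when 1 library was left out. Genes called in cue1 at 12 h numbered 166, and 108 with DESeq2 size factors, 1048 with DESeq2's own test, 381 with all 3 groups in the fit, 7 with the replicate block and 5 to 45 when a library was left out. Members called there numbered 1, and 2 with DESeq2's test, 4 with all 3 groups, 0 with the block and 0 to 1 without a library, against the wild type that chose the members. In sal1, 10110 genes were called (8089 to 10221 without a library), and 6 members, or 12 with no filter and 6 to 7 without a library. A replicate block in this set gave 10399 genes and 6 members, and changed no call of a member, ILA or AT1G64820 there. In cue1 at 16 h it was 1404 genes, 921 with only the 2 groups in the fit and 563 to 1685 without a library, and 4 members (3 to 5). In msh1 it was 6936 genes (5078 to 6903), and 3 members, 0 with only the 2 groups, where they were under the filter, and 0 to 3 without a library. Outside the members, hda6 gave 8619 genes at 12 h (6078 to 8318) and 1587 at 16 h (874 to 2069), with 2687 under the replicate block. Same-numbered libraries deviated together at over 0.1 in 6 of 18 pairs. Of these, 3 were in the sal1 set, 2 were hda6 pairs at 16 h and 1 was an hda6 pair at 12 h. Whether the samples are paired by number was not settled, and the reported hda6 calls carry no block.

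The alternatives in this paragraph were chosen after seeing the data. Members reaching 20 counts in place of 10 numbered 5 of 10 in cue1 at 12 h, 7 of 12 in sal1, 7 of 13 in cue1 at 16 h and 0 of 3 in msh1. Without the 24 members with copies or overlaps, those reaching 10 counts were 5 in cue1 at 12 h and 5 at 16 h, out of fewer members. With 1 mutant library left out and 7 counts over the others, the numbers were 10 to 10, 10 to 14, 12 to 18 and 1 to 3. Neighbours higher in hda6 at 16 h fell from 12 to 6 without those overlapping on the other strand. Members higher at 12 h than 16 h were 22 of 30 without copies and overlaps, which leaves fewer members.

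Over 62 results for single genes, 626 values under other settings were compared with the reported ones. Of these, 562 kept their direction and their side of the threshold, 41 lost the call, 17 gained one and 6 changed sign, none of the last with a call. AT5G15360 in msh1 had log2 fold changes from -2.72 to 1.87 when a library was left out. BNS (AT1G73177) in hda6 at 16 h was at 0.00777 with DESeq2 size factors, 0.0076 with DESeq2's test and -0.0771 to 0.115 without a library. SEP1 (AT5G15800) there was at -0.0534 to 0.798. Except where fewer genes, members or samples were used, the cause was not tested. Depth limits the members outside hda6, where 3 counts over a group are 0.0301 to 0.0577 CPM.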
